A study of Mus musculus with 9 samples.

Results

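The genes described here encode the respiratory chain and ATP synthase of mitochondria. They were chosen by symbol: complex I subunits named Ndufa, Ndufb, Ndufc, Ndufs or Ndufv with a number, the 4 Sdh genes of complex II, the Uqcr genes of complex III, the Cox genes of the families 4 to 8 whose symbol goes on with a, b or c, the Atp5 genes of complex V, and the mitochondrially encoded mRNAs, leaving out symbols marked as pseudogenes. This rule found 94 of the 47729 genes in the count table, 81 encoded in the nucleus and 13 in mitochondrial DNA. RNA was sequenced from 9 mouse cultures, 3 each of 3 kinds of cell, all with a source in the subventricular zone, the stem cell layer that lines the lateral ventricles of the brain. NF1 (cultures 1 to 3) are tumour cells derived from neural stem cells with the genotype shp53, Nf1-/-, CDK4, which by usual naming stands for a hairpin against p53, loss of Nf1 and the cell cycle kinase CDK4. LTR (cultures 1 to 3) are tumour cells derived from neural stem cells with the genotype lgT/Ras, an abbreviation that the labels leave unexplained. NSC (cultures 1, 3 and 5) are primary neural stem cells of wild type. All were kept in neural stem cell medium for up to 10 passages. The labels do not give the age of the animals, whether the tumour lines were transformed separately or whether each is a clone, so p-values measure the spread between these cultures, which may share a source.

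Complexes I to IV pass electrons from NADH and succinate to oxygen, complexes I, III and IV pump protons out of the mitochondrial matrix meanwhile, and complex V lets the protons back in to make ATP. Complexes I, III, IV and V are built from subunits of both genomes, so that their assembly needs matched products of nuclear and mitochondrial transcription, whereas complex II is wholly nuclear and is also the succinate dehydrogenase of the citric acid cycle. Proliferating neural stem cells are known for a high rate of glycolysis and for a shift towards oxidative metabolism when they differentiate. The counts measure RNA in whole cultures, in which fewer cells of a type and less RNA per cell cannot be told apart.

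Libraries held 28600479 to 57231024 counts. Levels below are CPM (counts scaled to a common library size, with TMM factors between libraries), and only where genes are compared with each other are they divided by transcript length (CPM per kb). A floor of 3 counts lay between 0.0541 CPM in NSC 3 and 0.114 CPM in LTR 2. Of the 10 neural stem cell markers, 9 averaged at least 1 CPM in NF1, 8 in LTR and 10 in NSC. Their summed level was 11200 to 13500 CPM in NF1, 6800 to 12600 CPM in LTR and 13700 to 14600 CPM in NSC. Each tumour library thus lay below each NSC library. The sequencing lane in the column names was the same for all 6 tumour libraries and another for all NSC libraries, and an effect of lane cannot be told apart from one of the tumour genotypes. Trp53 was higher in NF1, at 217, 151 and 221 CPM, against 107, 114 and 101 CPM in NSC (log2 fold change 0.87, adjusted p = 0.0141 by edgeR's quasi-likelihood test), so the counts do not show the knock-down that the label names. Nf1 was at 59.03, 97.2 and 40.1 CPM in NF1 and 110, 82.5 and 114 CPM in NSC and did not pass (adjusted p = 0.205). The labels do not say which part of Nf1 was deleted, so its level checks nothing. Cdk4 was at 795, 393 and 1124 CPM in NF1 and 334, 456 and 325 CPM in NSC, where NF1 2 lay within the NSC range (adjusted p = 0.053, edgeR). NF1, LTR and NSC therefore stand throughout for the libraries labelled so.

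Individual cultures stood apart within each group, and the nuclear respiratory chain genes moved with them. The 77 nuclear members with enough counts to be tested were summed per library and compared gene by gene with the other cultures of the group. NF1 3 had the highest level of its group for 69 of the 77 genes (89.6%), LTR 2 for 68 (88.3%) and NSC 3 for 75 (97.4%). NF1 2 had the lowest level of its group for 68 (88.3%). Over all 15696 tested genes the same shares were 32.1% for NF1 3, 41.0% for LTR 2, 43.3% for NSC 3 and 35.1% for NF1 2. The median log2 difference from the mean of the other 2 cultures was 0.86 in NF1 3, 0.69 in LTR 2, 0.60 in NSC 3 and -0.77 in NF1 2.

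Ribosomal protein genes moved in the same libraries, and other genes with short transcripts did so in NF1 3, LTR 2 and NF1 2 but hardly in NSC 3. Cytosolic ribosomal proteins gave median log2 differences of 1.01 in NF1 3, 0.73 in LTR 2, 0.66 in NSC 3 and -1.01 in NF1 2, and mitochondrial ribosomal proteins gave 0.80, 0.48, 0.45 and -0.77. Other tested genes with a transcript under 1000 bases, a set from which only the members were removed, gave 0.57, 0.43, 0.10 and -0.52. In NSC 3, 47.1% of them were highest of the group, beside 43.3% of all tested genes. The median principal transcript was 865 bases for the nuclear members and 2850 bases for all tested genes. Whether transcript length, RNA quality or the state of the cells set these library differences was not tested. Counts of calls, and the named members whose call changed, are also given without NF1 2 and NSC 3.

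NSC 3 also differed from the other 8 libraries in counts of near-identical copies of member genes. Gm6969, a processed pseudogene that matches 342 bases of Cox7a2l at 98.0%, had 6 counts in NSC 3 and 941 to 1439 in each other library. Gm15920, which matches 402 bases of Ndufa12 at 99.5%, had 48 counts in NSC 3 and 619 to 1898 elsewhere, and the copy of mt-Nd3 described with the mitochondrial genes showed the same. These comparisons were made after the values were seen. The labels name no mouse strain, and whether NSC 3 came from mice of another strain or colony was not tested. Without NSC 3 as many nuclear members were called as with all libraries, 2 in NF1 against NSC and 5 in LTR against NSC. Of all tested genes, 20.2% and 32.2% passed. The genes called in LTR changed, with 4 higher and 1 lower, against 2 and 3 with all libraries. Ndufv3 and Sdha were no longer called. The median log2 fold change of the nuclear members rose from 0.19 to 0.54 in NF1 and from 0.27 to 0.64 in LTR.

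Summed by complex, the nuclear members showed this spread in all complexes. Complex I genes summed to 3246, 2463 and 4960 CPM in NF1 1 to 3, to 3077, 5109 and 3251 CPM in LTR 1 to 3, and to 2693, 3993 and 2643 CPM in NSC 1, 3 and 5. Complex V genes summed to 6370, 3930 and 7851 CPM in NF1, to 6089, 7695 and 6266 CPM in LTR and to 4439, 7251 and 4325 CPM in NSC. In each complex the group ranges overlapped, and the highest culture of a group (NF1 3, LTR 2 or NSC 3) was the same for all 5 complexes. Complex II summed to 638 to 965 CPM in NF1, 711 to 1090 CPM in LTR and 799 to 1232 CPM in NSC. Complex III gave 999 to 1892, 1197 to 1924 and 1009 to 1635 CPM in the same order of groups, and complex IV 1199 to 2432, 1416 to 2469 and 1191 to 1890 CPM.

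**Figure D1:**
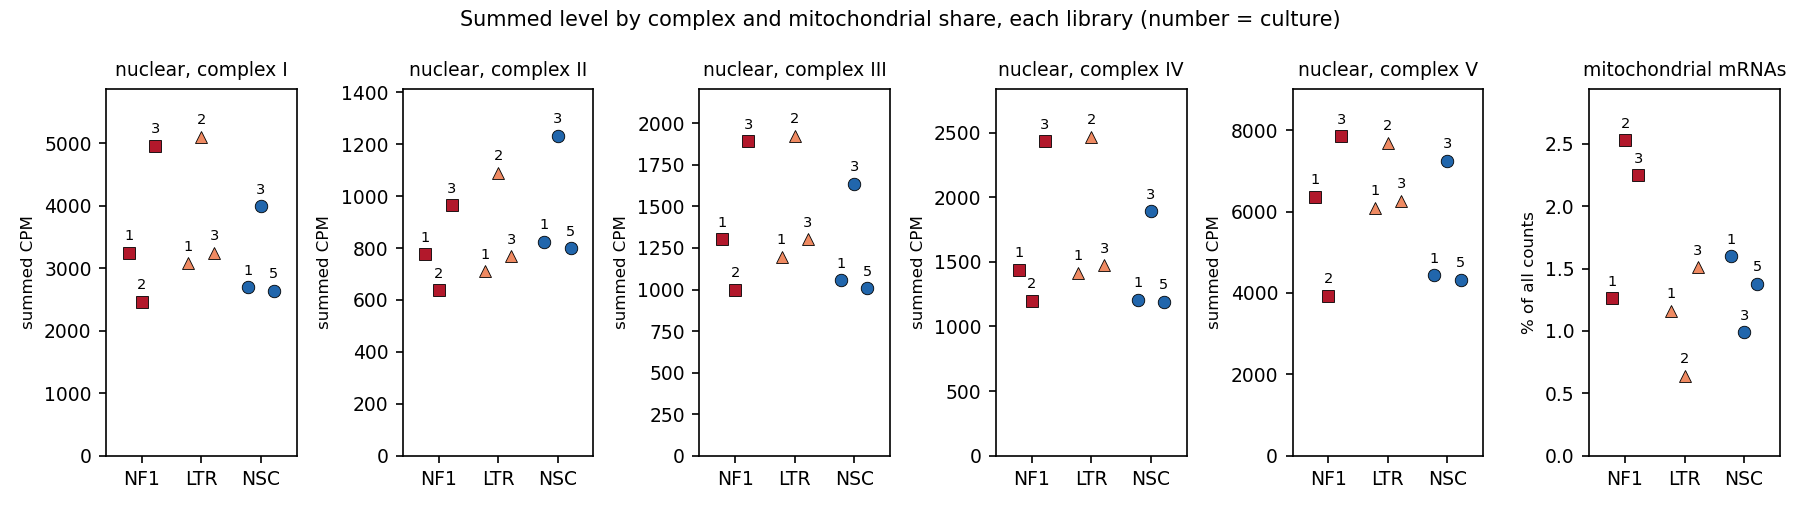
Summed CPM of the nuclear members of complexes I to V and, in the last panel, the percentage of all counts in the 13 mitochondrial mRNAs, for each library (numbers are cultures). Almost all counts of the last panel came from 7 of the 13. NF1 3, LTR 2 and NSC 3 are highest of their group in all 5 nuclear panels, whereas NSC 3 and LTR 2 are lowest of theirs in the mitochondrial panel.

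Few nuclear members passed the test between tumour cells and neural stem cells. In NF1 against NSC, 1 of the 77 tested genes was higher (Atp5l) and 1 lower (Cox6b2), together 2.6%, and 75 were not called, where 23.1% of all tested genes passed, 10.1% higher and 13.1% lower. In LTR against NSC, 2 were higher (Atp5l and Ndufs7), 3 lower (Cox6b2, Ndufv3 and Sdha), together 6.49%, and 72 were not called, where 35.9% of all tested genes passed, 14.9% higher and 20.9% lower. Both comparisons share the NSC libraries. The test was edgeR's quasi-likelihood F test at a Benjamini-Hochberg adjusted p under 0.05 over all tested genes. DESeq2 called 3 nuclear members in NF1 against NSC, against 24.9% of all genes it tested, and limma-voom 3, against 27.5%. In LTR against NSC the counts were 6 by DESeq2 (34.4% of all genes) and 5 by limma-voom (38.0%). At an unadjusted p under 0.05, 4 passed in NF1 against NSC (2 higher, 2 lower), where 38.4% of all tested genes did, 18.0% higher and 20.3% lower. In LTR against NSC 10 passed (7 higher, 3 lower), where 47.5% of all tested genes did, 26.5% in the lower direction. The 4 nuclear members not tested for low counts were Cox6a2, Cox7b2, Cox8b and Cox8c.

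The NF1 and NSC libraries did not overlap for 6 of the 77 nuclear genes (2 higher in NF1, 4 lower), against 42.3% of all tested genes (18.7% higher, 23.7% lower). Those of LTR and NSC did not overlap for 16 (9 higher in LTR, 7 lower), against 59.0% of all tested genes (26.9% higher, 32.0% lower). The median log2 fold change of the nuclear members was 0.19 in NF1 against NSC, beside 0.00 over all tested genes, and 0.27 in LTR against NSC, beside -0.06. These medians turned negative when a trend with principal transcript length was taken out of each library, to -0.15 for NF1 and -0.09 for LTR. That of NF1 was also negative without NF1 3 (-0.16). Other alternatives lowered or raised them without a change of sign. They fell to 0.06 for NF1 and 0.096 for LTR with a trend in exonic length taken out. The highest were 0.715 for NF1 without NF1 2, LTR 2 and NSC 3, and 0.64 for LTR without NSC 3.

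The counts depended on single cultures. Without NF1 2 and NSC 3 together, 24 nuclear genes passed in NF1 against NSC (31.2%, 23 of them higher), where 46.4% of all tested genes did. In LTR against NSC 23 passed (29.9%, 21 of them higher), where 49.7% of all tested genes did. These libraries were singled out by the levels of the same genes, the lowest of NF1 and the highest of NSC, while the high NF1 3 and LTR 2 were kept, so the direction of the added calls follows from the choice and is no support for it. Among named members, Atp5b, Cox6b1, Cox7a2 and Cox7b passed in both tumour groups in that fit, and Atp5g3, Sdhd and Ndufs7 in NF1 as well, with log2 fold changes of 0.84 to 1.152 in NF1. In NF1 against NSC, no nuclear gene passed when NSC 1, NSC 5 or NF1 3 was left out (10.9%, 11.6% and 14.4% of all tested genes), 1 passed without NF1 1 (11.6% of all) and 8 without NF1 2 (42.2% of all). In LTR against NSC, 1 passed without NSC 1 or LTR 1 (20.4% and 26.5% of all tested genes), 2 without NSC 5 or LTR 3 (21.5% and 22.2%), 3 without LTR 2 or NF1 1 (25.6% and 32.9%) and 9 without NF1 2 (46.7%).

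**Figure D2:**
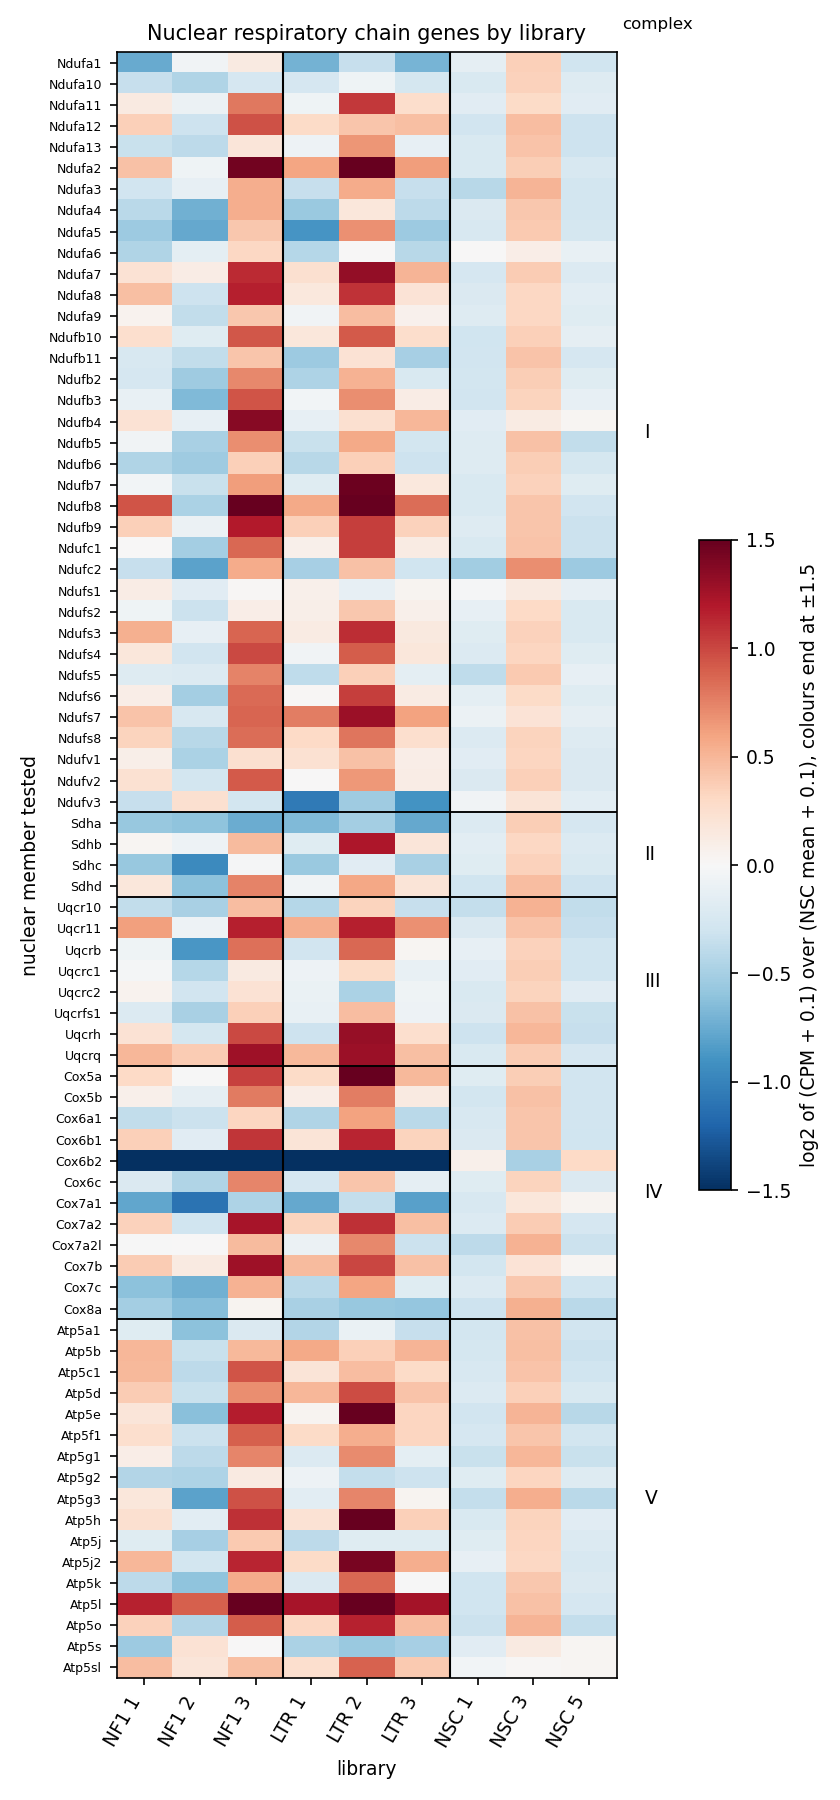
Log2 level of each of the 77 tested nuclear members in each library relative to the NSC mean (0.1 CPM added to both), by complex. Most rows turn red together in NF1 3, LTR 2 and NSC 3 and blue together in NF1 2, while Cox6b2 is blue and Atp5l red in all 6 tumour libraries. NSC 3 raises the NSC mean used as reference: the 77 genes summed to 16000 CPM there, 10220 in NSC 1, 9967 in NSC 5 and 9229 in NF1 2.

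Complex I takes electrons from NADH. Its 36 nuclear members were all tested. Of these, Ndufs7 was higher and Ndufv3 lower in LTR than in NSC, and none passed in NF1 against NSC. The median log2 fold change was 0.16 in NF1 and 0.25 in LTR, with 23 and 26 of the 36 genes above 0. Per kb of transcript the most abundant was Ndufa4, at 320 ± 154 CPM per kb in NF1, 291 ± 81.1 in LTR and 340 ± 94.2 in NSC (SD, n = 3 each); its product is now counted with complex IV by many authors. Over all libraries the complex I genes ran from 10.1 to 317 CPM per kb, with a median of 93.1.

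Ndufs7 encodes a core subunit with an iron-sulfur cluster that hands electrons on towards ubiquinone. It lies at chr10:80249121-80256794 on the plus strand (GRCm38, GENCODE M21). It had 70.6, 44.4 and 96.1 CPM in NF1 1 to 3, 89.7, 128 and 80.2 CPM in LTR 1 to 3, and 49.4, 60.7 and 47.7 CPM in NSC 1, 3 and 5. All LTR libraries were above all NSC libraries, and NF1 2 was below the whole NSC group. The log2 fold change in LTR against NSC was 0.92 (SE 0.30, 1.89-fold, adjusted p = 0.0371 by edgeR's quasi-likelihood test), and 0.42 in NF1 against NSC (adjusted p = 0.318). The LTR call was lost without NSC 1, NSC 5, LTR 1, LTR 2 or NF1 1, with adjusted p up to 0.16 over all alternatives.

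Ndufv3 encodes an accessory subunit of the NADH-binding arm and lies at chr17:31520115-31531331 on the plus strand. It had 41.8, 62.8 and 43.9 CPM in NF1, 25.5, 36.7 and 28.6 CPM in LTR and 51.35, 60.9 and 47.55 CPM in NSC. Each LTR library was below each NSC library and each NF1 library. The log2 fold change in LTR against NSC was -0.81 (SE 0.23, adjusted p = 0.023), a level 1.76-fold lower, and the call was lost without NSC 1, NSC 3, LTR 1 or LTR 3 (adjusted p up to 0.108 over all alternatives). In NF1 against LTR it had a log2 difference of 0.71 with an adjusted p of 0.384, and in NF1 against NSC one of -0.11 with an adjusted p of 0.761 (edgeR).

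The largest fitted complex I change in LTR was that of Ndufa2, a peripheral accessory subunit, which was named after its values were seen. It had 109, 76.3 and 219 CPM in NF1, 120, 340 and 123 CPM in LTR and 68.5, 103 and 67.8 CPM in NSC. LTR 2 was far above the other LTR cultures, and NF1 overlapped NSC. Its log2 fold change of 1.28 in LTR against NSC did not pass (adjusted p = 0.0681).

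Complex II oxidises succinate. Sdha, its flavoprotein and catalytic subunit, was lower in LTR than in NSC, and the other 3 subunits did not pass in any comparison. Sdha (chr13:74322254-74350280, minus strand) had 281, 272 and 248 CPM in NF1, 263, 292 and 243 CPM in LTR and 361, 535 and 348 CPM in NSC. All 6 tumour libraries were below all 3 NSC libraries. The log2 fold change was -0.64 in NF1 (SE 0.21, adjusted p = 0.0537) and -0.64 in LTR (SE 0.21, adjusted p = 0.0384), a level 1.56-fold lower in LTR. In NF1 it also passed under 6 of 23 alternatives, by DESeq2, by limma-voom, with scaling to library totals, among genes of 10 CPM or more in 3 libraries and with either length trend taken out (smallest adjusted p = 0.0327, largest 0.245). The LTR call was lost when any of the 3 LTR or 3 NSC cultures was left out, or NF1 1 or NF1 3, and without NF1 2 and NSC 3 together, with adjusted p up to 0.252 over all alternatives. The log2 fold changes of Sdhb, the iron-sulfur subunit, and of the membrane anchors Sdhc and Sdhd were 0.16, -0.46 and 0.20 in NF1 and 0.53, -0.40 and 0.27 in LTR. Sdhd was the most abundant per kb, at 174 ± 77.4 CPM per kb in NF1, 182 ± 40.6 in LTR and 151 ± 49.3 in NSC.

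Complex III passes electrons from ubiquinol to cytochrome c. None of its 8 nuclear members passed in either comparison with NSC, with median log2 fold changes of 0.07 in NF1 and 0.20 in LTR. The most abundant per kb was the hinge subunit gene Uqcrh, at 408 ± 183 CPM per kb in NF1, 459 ± 270 in LTR and 308 ± 109 in NSC. The core proteins Uqcrc1 and Uqcrc2 had log2 fold changes of -0.09 and 0.01 in NF1 and 0.05 and -0.20 in LTR, and the Rieske iron-sulfur protein Uqcrfs1 had -0.07 and 0.12. The smallest adjusted p-values in LTR against NSC were those of the small subunits Uqcr11 (log2 fold change 0.83, adjusted p = 0.0822) and Uqcrq (0.80, adjusted p = 0.0844), both named after their values were seen.

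Complex IV, cytochrome c oxidase, has subunits that come in tissue isoforms, and Cox6b2 changed most of all members. Cox6b2 encodes the COX6B isoform known from testis, while Cox6b1 encodes the isoform of most other tissues. Cox6b2 (chr7:4751792-4753094, minus strand) had 0.029, 0.8004 and 0 CPM in NF1, 0.030, 0.8011 and 0.299 CPM in LTR and 9.50, 6.37 and 11.1 CPM in NSC. These were 1, 25 and 0 counts in NF1, 1, 21 and 10 in LTR and 359, 353 and 413 in NSC. Each tumour library was below each NSC library. The log2 fold change was -5.01 in NF1 (SE 1.38, 32.2-fold lower, adjusted p = 0.0296) and -4.59 in LTR (SE 1.35, 24.1-fold lower, adjusted p = 0.0266). Over the alternatives it ran from -9.01 to -4.46 in NF1 and from -6.18 to -4.03 in LTR. The NF1 call was lost without NSC 1, NSC 5, NF1 1 or NF1 3 (adjusted p up to 0.0826), and the LTR call without NSC 1, NSC 5, LTR 1 or LTR 3 (adjusted p up to 0.0893). No other annotated transcript matched 75 bases or more of Cox6b2 at 95% identity.

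Cox6b1 lies on the same chromosome (chr7:30616861-30626151, minus strand) and was the most abundant complex IV member per kb, at 430 ± 186 CPM per kb in NF1, 465 ± 177 in LTR and 302 ± 86.9 in NSC. In CPM it had 240, 166 and 391 in NF1, 214, 413 and 235 in LTR and 160, 249 and 152 in NSC. The groups overlapped, and it did not pass (log2 fold change 0.51 with adjusted p = 0.342 in NF1, 0.62 with adjusted p = 0.214 in LTR). Per kb of transcript Cox6b2 stood at 0.473 in NF1, 0.644 in LTR and 15.4 in NSC, so that Cox6b1 was the higher of the pair in every group.

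The promoters of the pair (RefSeq, GRCm38.p6, 250 bases before to 50 after the annotated start, both on the minus strand of chromosome 7, chr7:4753045-4753344 for Cox6b2 and chr7:30626065-30626364 for Cox6b1) are shown because the 2 isoforms behaved differently. Capitals mark matches to the motifs of NRF1 (GCATGCGC), GABPA (CCGGAAG) or YY1 (AAGATGGCG), factors known to act on respiratory chain promoters, on either strand. Cox6b1 held 1 GABPA match and Cox6b2 held 0 matches.
Cox6b2: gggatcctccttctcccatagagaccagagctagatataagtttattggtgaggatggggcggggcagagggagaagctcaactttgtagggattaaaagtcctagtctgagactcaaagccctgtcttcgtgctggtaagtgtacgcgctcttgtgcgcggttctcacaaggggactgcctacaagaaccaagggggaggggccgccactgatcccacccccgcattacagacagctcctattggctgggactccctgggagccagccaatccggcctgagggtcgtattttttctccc
Cox6b1: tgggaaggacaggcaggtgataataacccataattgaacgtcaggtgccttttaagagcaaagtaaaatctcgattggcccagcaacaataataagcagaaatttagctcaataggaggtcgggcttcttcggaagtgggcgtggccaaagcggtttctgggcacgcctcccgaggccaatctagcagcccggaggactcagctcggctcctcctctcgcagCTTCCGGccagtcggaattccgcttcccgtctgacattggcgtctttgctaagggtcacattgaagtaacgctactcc

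Markers of some other cell types were also higher in NSC than in the tumour cells. The summed level of 4 astrocyte markers ran from 47.3 to 548 CPM in NF1, 39.0 to 77.1 CPM in LTR and 1050 to 1610 CPM in NSC, with 3, 1 and 4 of the 4 averaging at least 1 CPM and none at 0. That of 3 ependymal markers was 0.375 to 5.7, 0.478 to 0.648 and 99.9 to 207 CPM (1, 0 and 1 of 3 at 1 CPM or more, with Tmem212 at 0 in LTR and NSC). That of 5 neuronal markers was 19.2 to 43.4, 21.6 to 66.5 and 210 to 291 CPM (2, 2 and 3 of 5, with Rbfox3 at 0 in NF1 and LTR). That of 6 fibroblast and mural markers was 2.39 to 40.4, 2.87 to 5.49 and 43.4 to 1030 CPM (2, 1 and 3 of 6, with Lum at 0 in NF1 and LTR). The 4 oligodendrocyte markers were low in all groups and overlapped, at 0.522 to 4.64 CPM in NF1, 0.61 to 1.4 CPM in LTR and 1.35 to 3.78 CPM in NSC (1, 0 and 1 of 4, none at 0). Their part in the Cox6b2 difference was not tested.

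The other isoforms known from muscle or testis were low or not detected in all cultures. Cox7a1, the COX7A isoform of heart and skeletal muscle, had 1.68, 1.31 and 2.12 CPM in NF1, 1.69, 2.29 and 1.64 CPM in LTR and 2.49, 3.34 and 3.03 CPM in NSC. Each tumour library was below each NSC library, but the differences did not pass (log2 fold change -0.79 with adjusted p = 0.151 in NF1, -0.66 with adjusted p = 0.193 in LTR). Its counterparts Cox7a2 and Cox7a2l, which encode the form of most tissues and a supercomplex assembly factor, had log2 fold changes of 0.57 and 0.18 in NF1 and 0.67 and 0.18 in LTR. Cox7a2l had 8499 counts in NSC 3 and 2849 to 4605 in each other library. These counts are not scaled for depth, and NSC 3 held 57231024 counts in all, against 28600479 to 36042825 in the others. Reads could also fall on the copy Gm6969, and whether this altered the fold of Cox7a2l against NSC was not tested. Without NSC 3 its log2 fold change was 0.64 in NF1 and 0.66 in LTR, again not called. The medians of all tested nuclear members in that fit were 0.54 and 0.64. Cox6a2, the muscle form of COX6A, reached 0.144 CPM at most, Cox7b2 0.107 CPM, and Cox8b and Cox8c had 0 counts in all 9 libraries. Cox6a1, Cox7b and Cox8a, the forms of most tissues, had log2 fold changes of -0.09, 0.68 and -0.34 in NF1 and 0.00, 0.66 and -0.55 in LTR, none called. The 5 muscle markers summed to 0.288 to 2.46 CPM in NF1, 0.148 to 0.746 CPM in LTR and 1.31 to 1.44 CPM in NSC, with Myh4 and Actc1 at 0 in all groups.

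The genes of COX4 fall outside the symbol rule and were measured as companions. Cox4i1, the form of most tissues, did not pass (log2 fold change 0.31 in NF1 and 0.56 in LTR). Cox4i2, the form known from lung, was lower in both tumour groups at a very low level, with 0.029, 0.224 and 0.068 CPM in NF1, 0.119, 0.038 and 0 CPM in LTR and 0.953, 0.505 and 0.965 CPM in NSC. Each tumour library lay below each NSC library (log2 fold change -2.88 with adjusted p = 0.0441 in NF1, -3.84 with adjusted p = 0.0147 in LTR, edgeR). The NF1 call was lost without NSC 1, NSC 3, NSC 5, LTR 2, NF1 1 or NF1 3, and the LTR call without LTR 2 or LTR 3. Cyct, the cytochrome c gene of testis, had 0, 0.544 and 0 CPM in NF1, 0.297, 9.96 and 1.97 CPM in LTR and 0.132, 0 and 0.0805 CPM in NSC. LTR 2 held most of it, and the LTR call (log2 fold change 5.86, SE 1.84, adjusted p = 0.0339) was lost without LTR 2, LTR 3 or any single NSC culture. Cycs, the somatic cytochrome c gene, had log2 fold changes of 0.33 and 0.48 and did not pass.

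**Figure D3:**
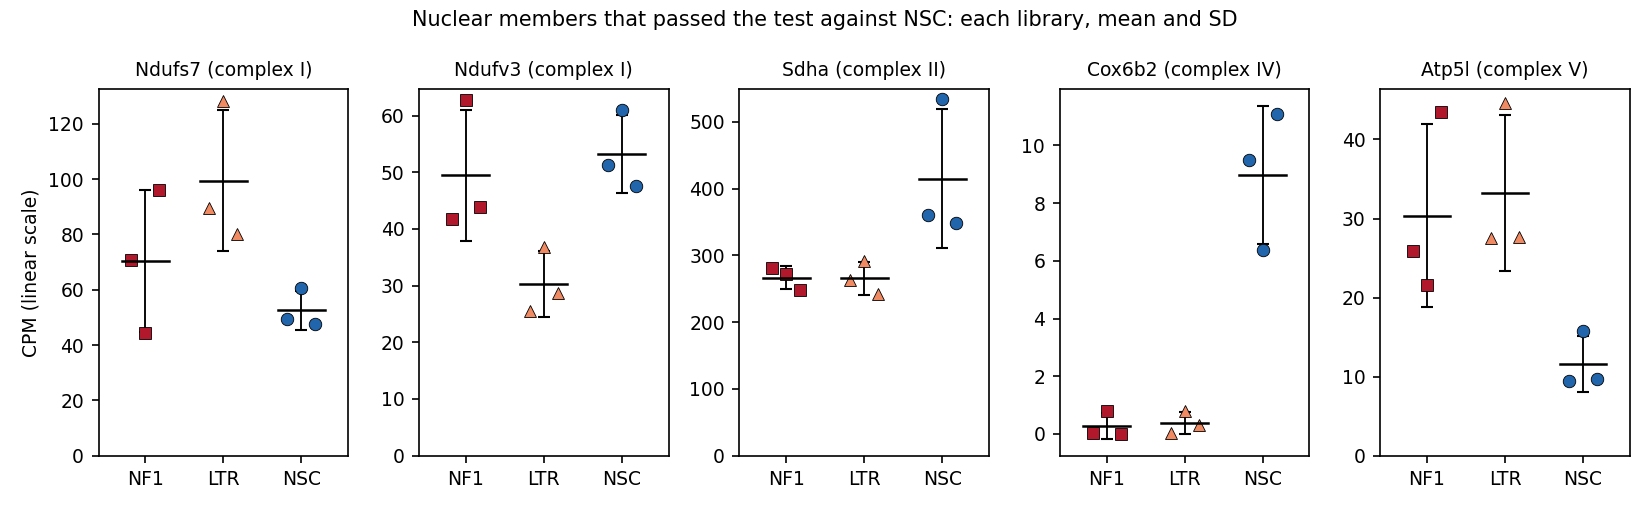
CPM of the 5 nuclear members that passed against NSC in either tumour group, for each library, with the mean (bar) and SD (whiskers). Cox6b2 and Sdha lie below NSC in all 6 tumour libraries and Atp5l above, whereas Ndufs7 and Ndufv3 passed in LTR and overlap NSC in NF1.

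Complex V makes ATP. Of its 17 members, which were all tested, Atp5l was higher in both tumour groups and no other passed. Atp5l encodes subunit g of the membrane part, which takes part in holding ATP synthase dimers together. It had 25.9, 21.6 and 43.5 CPM in NF1, 27.5, 44.6 and 27.6 CPM in LTR and 9.40, 15.7 and 9.71 CPM in NSC. All 6 tumour libraries were above all 3 NSC libraries. The log2 fold change was 1.39 in NF1 (SE 0.35, 2.61-fold, adjusted p = 0.0213) and 1.52 in LTR (SE 0.35, 2.86-fold, adjusted p = 0.0106). The NF1 call was lost without NSC 1, NSC 5 or NF1 3 and with a trend in GC content taken out, with adjusted p up to 0.093 over all alternatives, and no single culture ended the LTR call. Atp5l (chr9:44912557-44920742, minus strand) has close copies in 10 other annotated genes, and the longest match, a processed pseudogene on chromosome X, covers 394 bases at 96.7% identity. That copy held at most 1 count in any library. The sources used here do not say how reads that match several places were handled, and reads of an annotated antisense gene that overlaps its start cannot be told apart without strand, so the level of Atp5l is uncertain.

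The Atp5l promoter (chr9:44920693-44920992, minus strand) and, for comparison, that of Ndufs7 (chr10:80249199-80249498, plus strand), the members higher in LTR, are printed in the same way (RefSeq, GRCm38.p6). Capitals mark the motif matches, 1 of NRF1 followed by 2 of GABPA in Atp5l and 1 of YY1 in Ndufs7.
Atp5l: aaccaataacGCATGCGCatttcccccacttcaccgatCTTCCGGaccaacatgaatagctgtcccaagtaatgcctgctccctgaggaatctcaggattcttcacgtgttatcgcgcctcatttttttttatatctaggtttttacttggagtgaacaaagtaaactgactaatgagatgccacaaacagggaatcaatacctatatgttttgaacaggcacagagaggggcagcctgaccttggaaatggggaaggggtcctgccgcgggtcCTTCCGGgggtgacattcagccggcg
Ndufs7: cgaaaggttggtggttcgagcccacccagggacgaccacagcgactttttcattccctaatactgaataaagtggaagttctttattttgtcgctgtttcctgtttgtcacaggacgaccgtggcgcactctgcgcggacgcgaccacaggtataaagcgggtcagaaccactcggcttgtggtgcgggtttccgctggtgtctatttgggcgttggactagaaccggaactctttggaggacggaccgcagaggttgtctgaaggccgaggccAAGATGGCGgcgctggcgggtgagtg

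The catalytic beta subunit gene Atp5b was the most abundant nuclear member of all per kb, at 1131 ± 335 CPM per kb in NF1, 1315 ± 93.0 in LTR and 943 ± 301 in NSC. It had 2551, 1427 and 2522 CPM in NF1, 2671, 2323 and 2566 CPM in LTR and 1504, 2470 and 1444 CPM in NSC. NSC 3 lay within the LTR range, and the log2 fold changes of 0.26 in NF1 and 0.48 in LTR did not pass. Subunit c, which forms the rotating ring, is encoded by 3 genes. Atp5g3 was highest per kb, at 801 in NF1, 791 in LTR and 660 in NSC, against 30.3, 30.02 and 35.6 for Atp5g2 and 20.9, 20.4 and 18.0 for Atp5g1. Their log2 fold changes lay between -0.23 and 0.28 in NF1 and between -0.25 and 0.26 in LTR, and none passed. The complex V medians were 0.31 in NF1 and 0.39 in LTR, with 12 and 13 of the 17 genes above 0. Atp5sl, now also called Dmac2, matches the rule by symbol but is known in humans as a complex I assembly factor, and it did not pass (log2 fold change 0.37 in NF1, 0.54 in LTR).

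The promoter table held 69 of the 81 nuclear members. The NRF1 letters were found in 10 of the 69 (14.5%), against 3.05% of all 27025 genes with a promoter, the GABPA letters in 16 (23.2%), against 9.93%, and the YY1 letters in 8 (11.6%), against 1.64%. Any of the 3 was found in 28 members (40.6%), against 13.6% of all genes. Of the 43 matches in members, 5 pairs overlapped as the same motif read on both strands, and 0 pairs of different motifs overlapped. A match describes letters in these windows and does not show that a factor binds there.

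Between the tumour groups no member passed. In NF1 against LTR, 0 of 77 nuclear and 0 of 10 mitochondrial members were called, and 0 of all 15696 tested genes (0.0%), by edgeR's quasi-likelihood test. At an unadjusted p under 0.05, 1 nuclear member (Ndufv3) and 4 mitochondrial members were higher in NF1, against 10.2% of all tested genes (7.36% higher, 2.8% lower). The libraries did not overlap for Ndufv3 and mt-Atp6, both higher in NF1, against 12.5% of all tested genes (7.21% higher, 5.24% lower). DESeq2 called 333 genes (2.01%) and limma-voom 1 gene (0.00637%), and neither called a member. The median log2 difference of the nuclear members was -0.08, beside 0.06 over all tested genes. It ran from -0.45 to 0.40 over the alternatives.

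**Figure D4:**
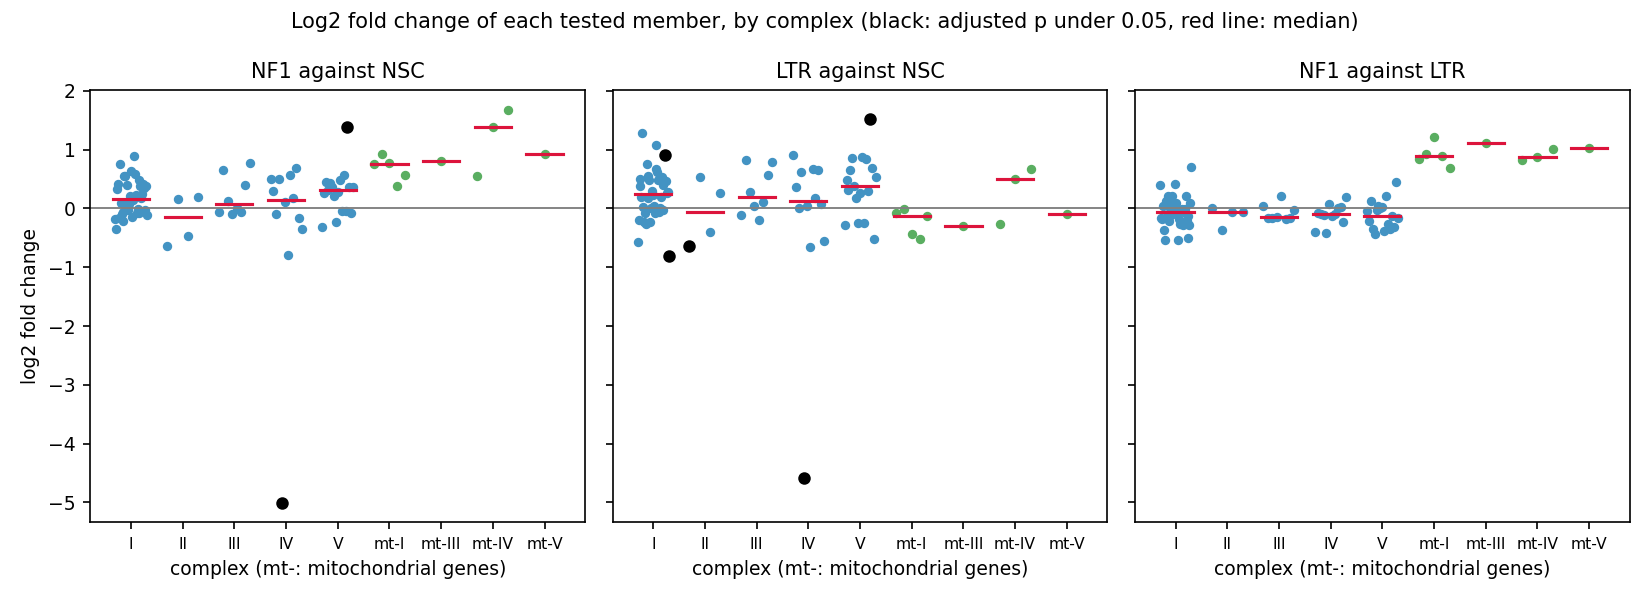
Log2 fold change of each tested member, by complex, in NF1 against NSC, LTR against NSC and NF1 against LTR (black points passed at an adjusted p under 0.05, red lines are medians). Most nuclear points lie within 1 unit of 0, Cox6b2 and Atp5l stand apart in both comparisons with NSC, and all 10 tested mitochondrial genes lie above 0 in both comparisons that have NF1 on top.

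The mitochondrially encoded mRNAs varied widely between cultures of a group. They took 1.26%, 2.53% and 2.25% of all counts in NF1 1 to 3, 1.16%, 0.639% and 1.51% in LTR 1 to 3, and 1.6%, 0.99% and 1.38% in NSC 1, 3 and 5. Almost all of these counts came from 7 of the 13 genes, as the other 6 never exceeded 41 counts in a library. The shares and the ratios below therefore describe those 7. NF1 2 and NF1 3 were above all other libraries, NF1 1 lay within the LTR and NSC ranges, and LTR 2 was lowest of all. The ratio of mitochondrial to nuclear member counts was 0.954, 2.75 and 1.33 in NF1, 0.882, 0.381 and 1.13 in LTR and 1.5, 0.639 and 1.32 in NSC. In LTR and NSC, the cultures highest in nuclear members (LTR 2 and NSC 3) had the lowest ratio of their group, and NF1 2, lowest in nuclear members, had the highest. NF1 3, highest in nuclear members of its group, had the middle ratio. Nuclear counts are the divisor of the ratio, which alone pushes it this way, so the ratio does not show that the genomes moved in opposite directions. Median log2 differences from the other 2 cultures do not use it. For the 7 mitochondrial members over 100 CPM they were -0.85 in LTR 2, -0.85 in NSC 3, 0.45 in NF1 2 and 0.40 in NF1 3. For nuclear members they were 0.69, 0.60, -0.77 and 0.86, so only NF1 3 had the same sign in both. The cause was not tested. The mitochondrial ribosomal RNA mt-Rnr2 had 379, 409 and 877 CPM in NF1, 364, 576 and 491 CPM in LTR and 344, 325 and 421 CPM in NSC, and neither it nor mt-Rnr1 passed in any comparison.

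None of the 10 tested mitochondrial members passed in NF1 against NSC or in LTR against NSC, where 23.1% and 35.9% of all tested genes did. All 10 had log2 fold changes above 0 in NF1 against NSC (median 0.79, range 0.38 to 1.67) and in NF1 against LTR (median 0.91, range 0.69 to 1.21), 2 comparisons that share the NF1 libraries. These genes are cut from shared transcripts of the same DNA and are not independent, and 3 of them (mt-Co2, mt-Co3 and mt-Atp6) had almost no counts. At an unadjusted p under 0.05, 3 of the 10 (mt-Nd2, mt-Cytb and mt-Co3) were higher in NF1 than in NSC and 0 lower. Of all tested genes, 38.4% passed so, 18.0% higher. Between LTR and NSC 0 of 10 differed, against 47.5% of all tested genes. Without NF1 1, mt-Nd2 passed in NF1 against NSC (log2 fold change 1.19, adjusted p = 0.0499), where 11.6% of all tested genes did. Its log2 fold change over the alternatives ran from 0.61 to 1.19. In LTR against NSC the median was -0.11 and took both signs over the alternatives (-0.52 to 0.18).

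Among the complex I genes of mitochondrial DNA, mt-Nd2 had 1268, 2483 and 2478 CPM in NF1, 942, 899 and 1449 CPM in LTR and 1385, 789 and 1117 CPM in NSC. NF1 2 and NF1 3 were above all other libraries, and NF1 1 was within the NSC range. Its log2 fold change was 0.92 in NF1 against NSC (SE 0.34, adjusted p = 0.08) and 0.00 in LTR against NSC (adjusted p = 0.999). The log2 fold changes of mt-Nd1, mt-Nd4 and mt-Nd5 were 0.76, 0.77 and 0.38 in NF1 against NSC and -0.08, -0.44 and -0.52 in LTR against NSC. The gene mt-Nd6 lies on the opposite strand and overlaps the end of mt-Nd5. The kit does not keep strand, so reads of their overlap cannot be told apart. Nor can reads of the opposite strand anywhere else within mt-Nd6, so its level is uncertain. The gene mt-Nd6 had 222, 509 and 524 CPM in NF1, 222, 279 and 276 CPM in LTR and 352, 179 and 318 CPM in NSC, with log2 fold changes of 0.57 in NF1 and -0.13 in LTR.

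The complex III gene mt-Cytb, cytochrome b, had 2919, 5346 and 5797 CPM in NF1, 2165, 1387 and 2972 CPM in LTR and 2965, 2543 and 2546 CPM in NSC. NF1 2 and NF1 3 exceeded every other library, and NF1 1 was below LTR 3 and NSC 1. Its log2 difference in NF1 against LTR was 1.11 (SE 0.35, unadjusted p = 0.0107 and adjusted p = 0.379 by edgeR). The complex IV gene mt-Co1, the catalytic core of cytochrome c oxidase, had 4060, 8961 and 7439 CPM in NF1, 4360, 1854 and 5393 CPM in LTR and 5226, 4036 and 4687 CPM in NSC. Among the 7 mitochondrial members with at least 7079 counts in every library, mt-Co1 was the most abundant per kb, at 4414 in NF1, 2504 in LTR and 3009 in NSC. The other 6, described below, have levels that cannot be ranked with these. The gene mt-Co1 did not pass (log2 fold change 0.55 in NF1 and -0.27 in LTR).

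**Figure D5:**
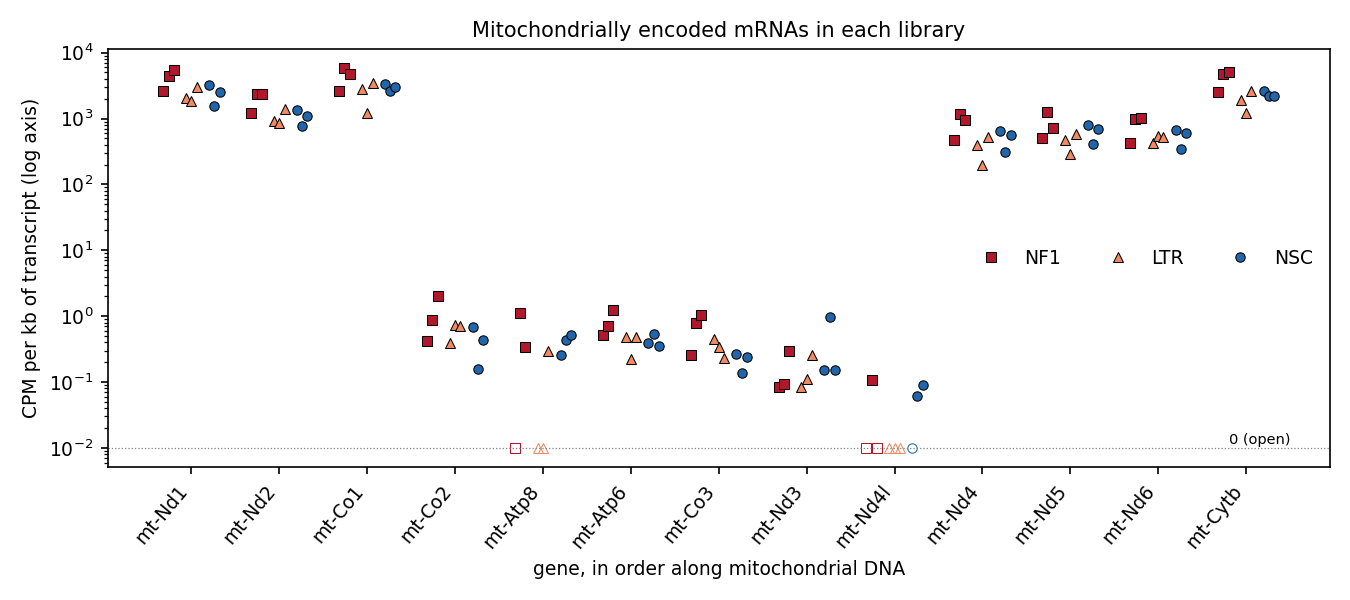
CPM per kb of transcript (log axis) of the 13 mitochondrially encoded mRNAs in each library, in the order of the genes along mitochondrial DNA, with open symbols for a count of 0. The 6 neighbouring genes from mt-Co2 to mt-Nd4l lie orders of magnitude below the other 7 in every library.

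The 13 mitochondrial mRNAs fell into 2 sets by level. The genes mt-Co2, mt-Atp8, mt-Atp6, mt-Co3, mt-Nd3 and mt-Nd4l, which follow each other from chrM:7013-10173, never exceeded 41 counts in a library. The other 7 had 7079 to 279892 counts each. All 6 low genes have a near-identical annotated copy, in whole or in part, in a block on the minus strand of chromosome 1, chr1:24611535-24616197 (GRCm38, GENCODE M21). Copies of mt-Co2 (681 bases), mt-Atp6 (678), mt-Co3 (783) and mt-Nd4l (294) had 0 mismatches, the copy of mt-Nd3 (345 bases) had 1, and the last 43 bases of mt-Atp8, where it overlaps mt-Atp6, had 0. The block also matches the first 876 bases of mt-Nd4 and the last 483 of mt-Co1, which are both in the high set and which it covers only in part. Less similar copies on other chromosomes matched high genes too, with all 1545 bases of mt-Co1 at 97.6%, 510 of mt-Nd2 at 96.7% and 954 of mt-Nd5 at 95.2%. For mt-Atp8, a low gene, no other annotated gene matched 75 bases or more at 95% identity. Only annotated transcripts were searched, so stretches of the block between its annotated genes were not compared. The rest of mt-Atp8 may therefore have a copy there that was not seen. Most copies held few counts too, at most 35 for that of mt-Co2, 81 for that of mt-Atp6 and 35 for that of mt-Co3 in a library, while the copy of mt-Nd3, Gm28438, held up to 344 and 1779 in all, against 33 in all for mt-Nd3. The levels of these 6 genes therefore cannot be read as their expression, and the 3 of them that were tested (mt-Co2, mt-Co3 and mt-Atp6) carry the same limit. Whether reads that match both places were discarded was not tested.

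The start of mt-Co2 (chrM:7013-7072, plus strand), a low gene, is shown in lower case throughout because its copy Gm28661 has the same letters. The start of mt-Nd3 (chrM:9459-9491, plus strand) is shown with that of its copy Gm28438 (chr1:24613087-24613119, minus strand), and capitals mark the single difference, T3C, counted from 1 at the 5′ end of the transcript, with the letter of mt-Nd3 before and that of the copy after the position. All 3 are GENCODE M21 transcript sequences on GRCm38.
mt-Co2: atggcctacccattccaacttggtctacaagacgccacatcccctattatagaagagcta
mt-Nd3: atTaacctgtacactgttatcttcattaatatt
Gm28438: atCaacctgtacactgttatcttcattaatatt

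Counts of this pair of genes set NSC 3 apart from the other 8 libraries. The gene mt-Nd3 and its copy Gm28438 had 1 and 154 counts in culture NF1 1, 1 and 75 counts in culture NF1 2, and 3 and 344 counts in culture NF1 3. They had 1 and 187 counts in culture LTR 1, 1 and 285 counts in culture LTR 2, and 3 and 194 counts in culture LTR 3. They had 2 and 250 counts in culture NSC 1, 19 and 4 counts in culture NSC 3, and 2 and 286 counts in culture NSC 5. The copy thus took 98.5% to 99.7% of the pair's counts in 8 libraries and 17.4% in NSC 3 (4 of 23 counts, exact Clopper-Pearson 95% interval 4.95% to 38.8%, counting error only). The reads behind these counts were not analysed here, and which of the places they came from was not tested. NSC 3 was also the NSC library with the highest nuclear members and the lowest mitochondrial share.

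Companion lists held genes that serve the chain without being members. Of 23 genes for transcription, replication and RNA handling in mitochondria, 7 were higher in NF1 than in NSC and 0 lower, and in LTR 13 were higher and 1 (Polg, the DNA polymerase) lower, where 10.1% of all tested genes were higher in NF1 and 14.9% in LTR. The list medians of the log2 fold change were 0.60 in NF1 and 0.86 in LTR. Lrpprc, which stabilises mitochondrial mRNAs, had 141, 137 and 121 CPM in NF1, 177, 183 and 168 CPM in LTR and 82.3, 94.1 and 89.6 CPM in NSC, with no overlap between the tumour groups and NSC (log2 fold change 0.58 with adjusted p = 0.0244 in NF1, 0.99 with adjusted p = 0.00227 in LTR). Mterf3, a mitochondrial transcription regulator (log2 fold changes 0.99 in NF1 and 1.07 in LTR), Fastkd5, an RNA processing factor (1.51 and 1.46), and Peo1, the Twinkle helicase (0.71 and 0.96), also passed in both tumour groups. The NF1 calls were lost without NSC 1 for Lrpprc, Fastkd5 and Peo1, without NSC 5 for Lrpprc, Mterf3 and Peo1, without NF1 1 for Lrpprc, Fastkd5 and Peo1, without NF1 3 for Fastkd5 and Peo1, and without NSC 3 for Fastkd5 (adjusted p up to 0.168 for Lrpprc and 0.176 for Peo1). In LTR, the calls for Lrpprc, Mterf3 and Peo1 held without any single culture, and that of Fastkd5 was lost without NSC 1 or LTR 2. Tfam, the packaging and transcription factor of mitochondrial DNA, passed in LTR (log2 fold change 1.22, adjusted p = 0.0196) and not in NF1 (0.86, adjusted p = 0.0852).

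Ppargc1a, the coactivator PGC-1alpha known as an inducer of mitochondrial genes, was lower in both tumour groups. It had 3.999, 5.51 and 1.88 CPM in NF1, 3.29, 2.52 and 2.63 CPM in LTR and 36.5, 57.8 and 36.4 CPM in NSC. All 6 tumour libraries were below all NSC libraries, with log2 fold changes of -3.52 in NF1 (SE 0.42, adjusted p = 0.00132) and -3.95 in LTR (SE 0.42, adjusted p = 0.000777), called under all 23 alternatives in both. Of the other 8 nuclear regulators tested, Pprc1 and Yy1 were higher in LTR (log2 fold changes 0.73 and 0.58, adjusted p = 0.0228 and 0.0474), both lost when single cultures were left out (among them NSC 1, NSC 5 and LTR 3 for each), 0 passed in NF1, and Nrf1, Gabpa and Esrra were among those that did not pass in either.

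Of 46 tested assembly factors of the complexes, 1 (2.17%, against 10.1% of all tested genes) was higher in NF1 (Sdhaf2, which helps attach FAD to Sdha, log2 fold change 0.96, adjusted p = 0.00674) and 0 lower. In LTR 5 were higher (10.9%, against 14.9% of all tested genes: Sdhaf2, Surf1, Cox17, Uqcc2 and Nubpl) and 1 lower (Coa5; 2.17%, against 20.9%). The calls for Sdhaf2 held without any single culture, and the others were each lost without NSC 1 and, except for Surf1, without LTR 2. Ogdh, a citric acid cycle gene of the oxoglutarate dehydrogenase complex, was lower in both tumour groups. It had 129, 152 and 91.5 CPM in NF1, 163, 107 and 148 CPM in LTR and 255, 384 and 264 CPM in NSC, again with all tumour libraries below NSC (log2 fold change -1.28 with adjusted p = 0.00995 in NF1, -1.11 with adjusted p = 0.0119 in LTR, lost without LTR 2). Of 77 mitochondrial ribosomal proteins, 7 were higher in NF1 (9.09%, against 10.1% of all tested genes) and 25 in LTR (32.5%, against 14.9%), with 0 lower in either, and their levels shared the library differences given above.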

How the data were processed

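The authors deposited raw counts per gene for 9 libraries. Per the labels' protocols, RNA was purified on RNeasy Plus columns, and the NEBNext Ultra kit, which keeps no strand, was used for library preparation. Per the submitters' processing notes, the builds were mm10 and GRCm38 and the tools were HTSeq, STAR 2.5.2a and DESeq2 1.8.2. The annotation, the counting mode and the handling of reads with several matches are stated in none of the sources used here. All 9 value columns were used, by identifier.

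The model was fitted with edgeR 4.0.16 (R 4.3.3) to 15696 genes and all 9 libraries, with a term per group, after TMM scaling and filterByExpr (minimum count 10). Quasi-likelihood F tests compared pairs of groups at a p of 0.05 adjusted by Benjamini and Hochberg, and the SE was derived from F. The filter left 87 of the 94 members, so counts of calls refer to tested members. No 2 libraries were copies (chi-square per degree of freedom 13.4 to 395.2). Transcript lengths and coordinates were taken from GENCODE M21, which held 47310 of the identifiers, copies were sought with BLAST 2.17.0, and promoters were taken from RefSeq. The fit was tested on simulated data.

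Named genes were all mitochondrial mRNAs, called members by complex, the most abundant member of each complex, isoform groups and the genes with the smallest adjusted p of each companion list; other genes were named after their values were seen. The list of citric acid cycle genes is not reported in full here. The members, lists and tests were chosen with earlier results of these data known. Alternatives were DESeq2 1.42.0, limma-voom 3.58.1, other scalings and filters, fewer libraries, the replicate number as a block, and trends with GC content or length taken out.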

Additional observations from a re-analysis of the deposited data

How the results depend on the processing

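The count of nuclear members called in LTR against NSC was 5. In what follows the share of all tested genes called under the same setting stands in brackets. The count was 10 with only the 6 libraries compared (46.5%), 11 with a trend in exonic length taken out (38.8%), 15 with one in principal transcript length (39.1%, 13 members lower), 23 without NF1 2 and NSC 3 (49.7%), 19 without NF1 2, LTR 2 and NSC 3 (52.2%), and 1 to 9 when each library was left out in turn. In NF1 against NSC it was 2, and 3 by DESeq2, limma-voom or scaling to library totals. It became 1 with a GC trend taken out (22.9%), 5 with exonic length (26.4%), 9 with principal transcript length (27.3%, 8 members lower), 24 without NF1 2 and NSC 3 (46.4%), 43 without NF1 2, LTR 2 and NSC 3 (56.6%, against 55.8% of the members), and 0 to 8 when each library was left out in turn. The mitochondrial count stayed at 0 under all settings except in NF1 against NSC, where leaving out single libraries gave 0 to 1. In NF1 against LTR no setting called a member. The members called with all 9 libraries in the fit (Ndufs7, Ndufv3, Sdha, Cox6b2 and Atp5l) kept their sign under all settings in the comparisons where they were called. Others took both signs, among them Atp5g3 (-0.25 to 1.06 in NF1) and Sdhd (-0.19 to 0.85 in NF1), which passed only without NF1 2 and NSC 3 or without LTR 2 as well. The fits with principal transcript length and without the 3 libraries were chosen after seeing the data. The causes were not tested, but leaving libraries out also leaves fewer samples.

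With the replicate number as a block, 2 nuclear members were called in LTR against NSC (22.2% of all tested genes) and 1 in NF1 against NSC (12.4%), all lower, and Atp5l was called in neither (adjusted p = 0.0578 in LTR). Number 5 occurs only in NSC, so NSC 5 has a block of its own and adds nothing to the comparisons in this fit. Number 2 occurs only in the tumour groups. A call lost here may thus reflect the loss of NSC 5. Equal numbers did not pair the libraries: correlations of same-numbered deviations ran from -0.185 to 0.121.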
